A study of Mus musculus with 9 samples.

Results

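Anti-PD-1 was added to the inhibitor OAT-1746 in mice with intracranial GL261 gliomas, and CD11b+ cells from mice given both agents (COMB) were compared with CD11b+ cells from mice given OAT-1746 without the antibody. The libraries were taken by their treatment labels and column names, 3 COMB and 2 OAT-1746, which is 5 of the 9 in the series. Male C57BL/6J mice aged 10 to 12 weeks had received GL261 glioma cells carrying tdTomato and luciferase in the right striatum. Both groups were given OAT-1746 by mouth at 50 mg/kg 2 times a day from day 1, and COMB mice also had intraperitoneal anti-PD-1 (2.5 mg/kg) at days 8, 10, 12 and 14. CTR mice, whose 2 libraries serve as background, had saline. CD11b+ cells were sorted from the tumor-bearing hemispheres, on day 28 according to the methods of the study and on day 21 according to a figure legend, and their polyadenylated RNA was sequenced in strand-specific libraries. GL261 is a single transplanted mouse line, and the sort takes resident microglia and myeloid cells that entered from blood together. The labels do not say which libraries came from separate animals, although the methods speak of biological replicates, so the p-values measure only the spread between these samples, which may be technical.

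OAT-1746 acts on the metabolism of L-arginine, an amino acid that T cells need to divide and that tumor myeloid cells take away. PD-1 is an inhibitory receptor of activated T cells and of some myeloid cells, and its ligands PD-L1 and PD-L2 are carried by myeloid and tumor cells. Immediate early genes such as Egr1, Fos and Jun encode transcription factors that growth factors, pattern recognition receptors and cell stress switch on within minutes through MAP kinases, and microglia are also known to switch them on while tissue is dissociated.

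Total counts were 17380045 and 16784406 in the OAT-1746 libraries (replicates 1 and 2), 13048075, 16144518 and 14806017 in the COMB libraries (replicates 1 to 3), and 17490386 and 17729568 in CTR. Of 53801 genes listed, 21890 were protein-coding in the GENCODE annotation of GRCm38, and 12538 had enough counts to be tested. Levels are edgeR's CPM values, which divide counts by the library size after TMM scaling, and every list of values follows the replicate numbers. Genes are named by rule: among called genes with a mean of at least 5 CPM the 15 with the highest and the 15 with the lowest log2 fold changes, the targets of the agents, and up to 4 called members of each gene list. Other genes with a call that are named (Ier2, Map3k8, Midn, Hic2, Wsb1, Zfp36, Nfkbia, Cebpd, Vsir, Cd74 and Hmox1) were picked after their values had been seen.

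The OAT-1746 replicates did not lie equally far from COMB. Correlations of log2 CPM (Pearson's r over the tested genes, which are not independent) were 0.911 to 0.956 between OAT-1746 replicate 2 and each other library, while pairs of those others reached 0.960 to 0.989. The median absolute log2 difference from the COMB mean was 0.33 in OAT-1746 replicate 1 and 0.56 in OAT-1746 replicate 2, and replicate 2 was the farther one for 9315 genes (74.3%). Monocyte genes set it apart as well. Ly6c2, which marks classical monocytes, was at 929 and 39.7 CPM in OAT-1746 and at 352, 372 and 330.4 CPM in COMB, and Tgfbi, a matrix protein gene of infiltrating macrophages, was at 2621 and 366 CPM and at 3335, 5830 and 6091 CPM. OAT-1746 replicate 2 was the lowest library for both genes. The share of counts on mitochondrial genes was 2.22% and 2.04% in OAT-1746, 1.34%, 0.600% and 0.729% in COMB, and 1.21% and 0.970% in CTR. The share on ribosomal protein genes was 3.65% and 2.82% in OAT-1746, 4.80%, 6.07% and 5.28% in COMB, and 5.37% and 4.91% in CTR.

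The myeloid identity of the sorted cells held in all 5 libraries. Itgam, which encodes CD11b itself, was at 445 and 446 CPM in OAT-1746 and at 366, 307 and 328 CPM in COMB. Csf1r, the receptor that keeps microglia and macrophages alive, was at 9939 and 11550 CPM and at 8849, 6926 and 7446 CPM. Genes of homeostatic microglia (P2ry12, Tmem119) and of monocytes and macrophages (Ccr2, Tgfbi) were read in every library, so both kinds of cell contributed. Cd3e, the epsilon chain of CD3 on T cells, was at 0 and 0.114 CPM and at 0.371, 0.528 and 0.496 CPM. Fewer cells of a type and less RNA of a gene per cell cannot be told apart in such bulk samples.

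Between COMB and OAT-1746, 1979 of 12538 genes (15.8%) were called, meaning that edgeR's quasi-likelihood test gave them a Benjamini-Hochberg adjusted p under 0.05. Of the tested genes, 858 (6.84%) were called higher and 1121 (8.94%) called lower in COMB. At an unadjusted p under 0.05 there were 2298 higher and 2353 lower genes. A log2 fold change over 1 in either direction was found for 759 called genes, 350 higher and 409 lower, and the median over all tested genes was 0.00. All 3 COMB libraries lay above both OAT-1746 libraries for 25.0% of the tested genes and below both for 28.9%, and the called genes were without overlap with 1 exception (1978 of 1979). In a fit of genes of every type, 58 of 1167 genes that are not protein-coding (4.97%) were called.

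The number of calls depended on single libraries and on the shared spread. Without OAT-1746 replicate 2, 27 of 12837 genes (0.210%) were called, 26 of them lower in COMB, whereas 4033 were called without OAT-1746 replicate 1. In these fits the single OAT-1746 library is assumed to vary as the other groups do. There were 2923 calls without COMB replicate 1, 14 without COMB replicate 2 and 5 without COMB replicate 3. When CTR and anti-PD-1 libraries were kept out of the fit, 30 genes were called, 28 of them lower. All 27 genes called without OAT-1746 replicate 2 were among the 1979. The fold changes moved less than the calls. All 1979 genes kept their direction without OAT-1746 replicate 2. This follows from how they were chosen, since OAT-1746 replicate 1 lay on the called side of the COMB mean for all 1979. Their median absolute log2 fold change was 0.91 with all libraries, 0.70 without OAT-1746 replicate 2 and 1.10 without OAT-1746 replicate 1. Of the 1979 calls, 1833 were kept without OAT-1746 replicate 1 and 1885 without COMB replicate 1. Unless a sentence says otherwise, a call named here was lost when OAT-1746 replicate 2, COMB replicate 2 or COMB replicate 3 was left out, and gene lists are given with their median without OAT-1746 replicate 2. Calls said to be kept without OAT-1746 replicate 2 were lost without COMB replicate 3, apart from 5 genes.

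**Figure D1:**
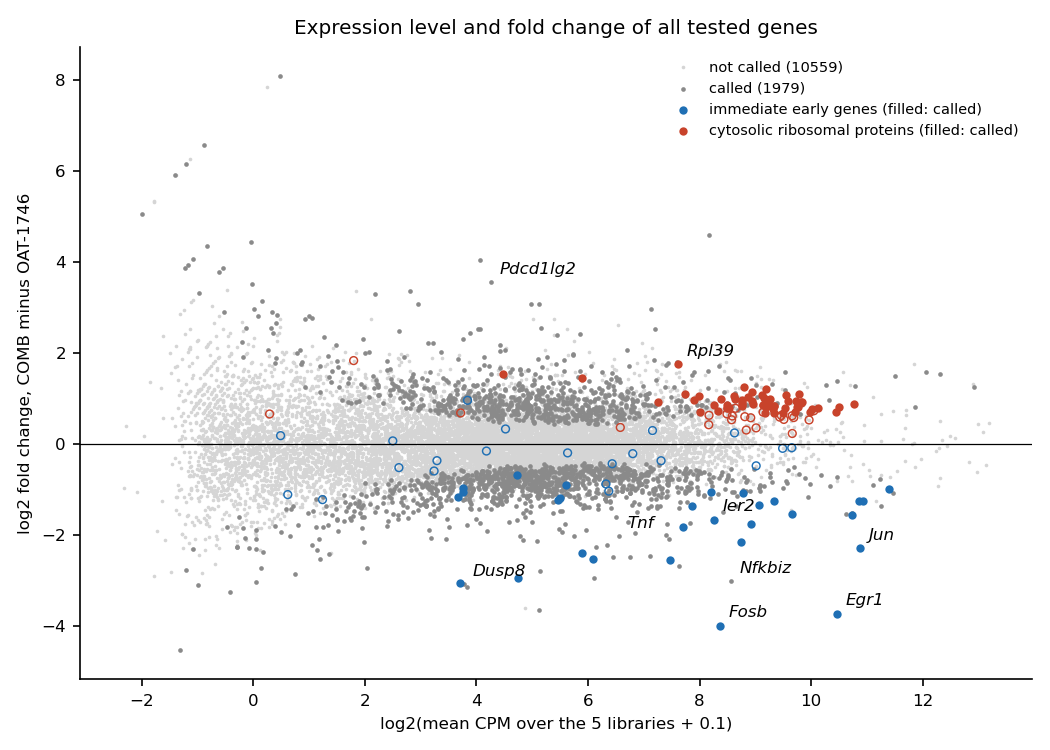
Log2 fold change (COMB minus OAT-1746) against log2 mean CPM over the 5 libraries for each of the 12538 tested genes, with the 1979 called genes in dark gray, immediate early genes in blue and cytosolic ribosomal protein genes in red (filled where called, open where not). Egr1 (log2 fold change −3.74) and Jun (−2.29) stand far below 0 at high levels, and all ribosomal protein genes lie above 0, led among the called ones by Rpl39 (1.76).

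Only 5 genes were called in the full fit and in all 5 fits that left out 1 library, and all 5 were lower in COMB: Egr1, Ier2, Map3k8, Midn and Nfkbiz. Egr1, a zinc finger factor of the early growth response, was at 2591 and 3730 CPM in OAT-1746, at 224, 231 and 256 CPM in COMB and at 767 and 851 CPM in CTR. The COMB libraries lay within a narrow range below CTR, and both OAT-1746 libraries lay above CTR. The log2 fold change of Egr1 was −3.74 (SE 0.26), its adjusted p was 0.00148 in edgeR's quasi-likelihood test with Benjamini-Hochberg adjustment, the smallest of the table, and the fold change ranged from −3.97 to −3.44 over the 5 fits. Nfkbiz, which encodes the nuclear NF-kB cofactor I-kappa-B-zeta, was at 580.4 and 1013 CPM in OAT-1746, 98.7, 93.2 and 103 CPM in COMB and 253 and 249.5 CPM in CTR, a log2 fold change of −3.02 (SE 0.26; −2.55 without OAT-1746 replicate 2). Map3k8, the kinase that carries Toll-like receptor signals to ERK, was at 48.4 and 60.3 CPM against 17.6, 15.7 and 16.2 CPM, and Ier2, an immediate early nuclear factor, at 503 and 534 CPM against 148, 179 and 162 CPM. Midn, the midnolin gene, whose product takes immediate early factors to the proteasome, was at 250.2 and 337 CPM against 81.4, 89.95 and 89.6 CPM. For these 5 genes COMB lay below CTR as well as below OAT-1746, and OAT-1746 lay above CTR.

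In the list of EGR and NR4A transcription factors, 5 of 6 tested members were called lower and none higher (8.94% of all genes were called lower), with a median log2 fold change of −2.75, and −1.93 without OAT-1746 replicate 2. All 6 lay below both OAT-1746 libraries in every COMB library. Egr3 was at 12.8 and 42.2 CPM in OAT-1746 and 3.19, 2.71 and 3.97 CPM in COMB, and Egr2, a factor of macrophage differentiation, at 32.3 and 79.5 CPM and 10.98, 5.15 and 5.74 CPM. Nr4a1, a nuclear receptor that restrains inflammatory genes in myeloid cells, was at 229.5 and 481 CPM in OAT-1746, 66.01, 49.5 and 64.6 CPM in COMB and 253 and 228 CPM in CTR. Here OAT-1746 replicate 1 lay at the CTR level and replicate 2 above it, while COMB lay below all of them. The log2 fold changes were −3.06 for Egr3, −2.94 for Egr2 and −2.56 for Nr4a1, and −1.95, −2.14 and −1.92 without OAT-1746 replicate 2. Egr1 was the member still called in that fit.

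Of 15 tested genes for AP-1 and related bZIP factors, 8 were called lower (8.94% of all genes) and none higher, with a median of −0.97 (−0.85 without OAT-1746 replicate 2). Fosb had the most negative log2 fold change among called genes with a mean of at least 5 CPM, −4.00 (SE 0.64). Its levels were 302 and 1203 CPM in OAT-1746, 53.4, 43.03 and 44.9 CPM in COMB and 332 and 208 CPM in CTR, so OAT-1746 replicate 1 lay within the CTR values and the fold change came to −2.67 without replicate 2. Jun, the central partner of the AP-1 dimer, was at 2826 and 4376 CPM in OAT-1746, 821, 670.5 and 718 CPM in COMB and 1412 and 1244 CPM in CTR. Its log2 fold change of −2.29 (SE 0.23, adjusted p = 0.00528, edgeR's quasi-likelihood test with Benjamini-Hochberg adjustment) was −1.93 without OAT-1746 replicate 2, where it was still called. Fos was at 1883 and 3749 CPM against 854, 968 and 1020 CPM, and Atf3, a stress-induced partner, at 501 and 1093 CPM against 188, 159 and 188 CPM. Both were lower in COMB in every library, at log2 fold changes of −1.57 and −2.16. OAT-1746 replicate 2 was the higher OAT-1746 library for both genes. For Fos, OAT-1746 replicate 1 lay within the CTR values of 2297 and 1803 CPM.

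**Figure D2:**
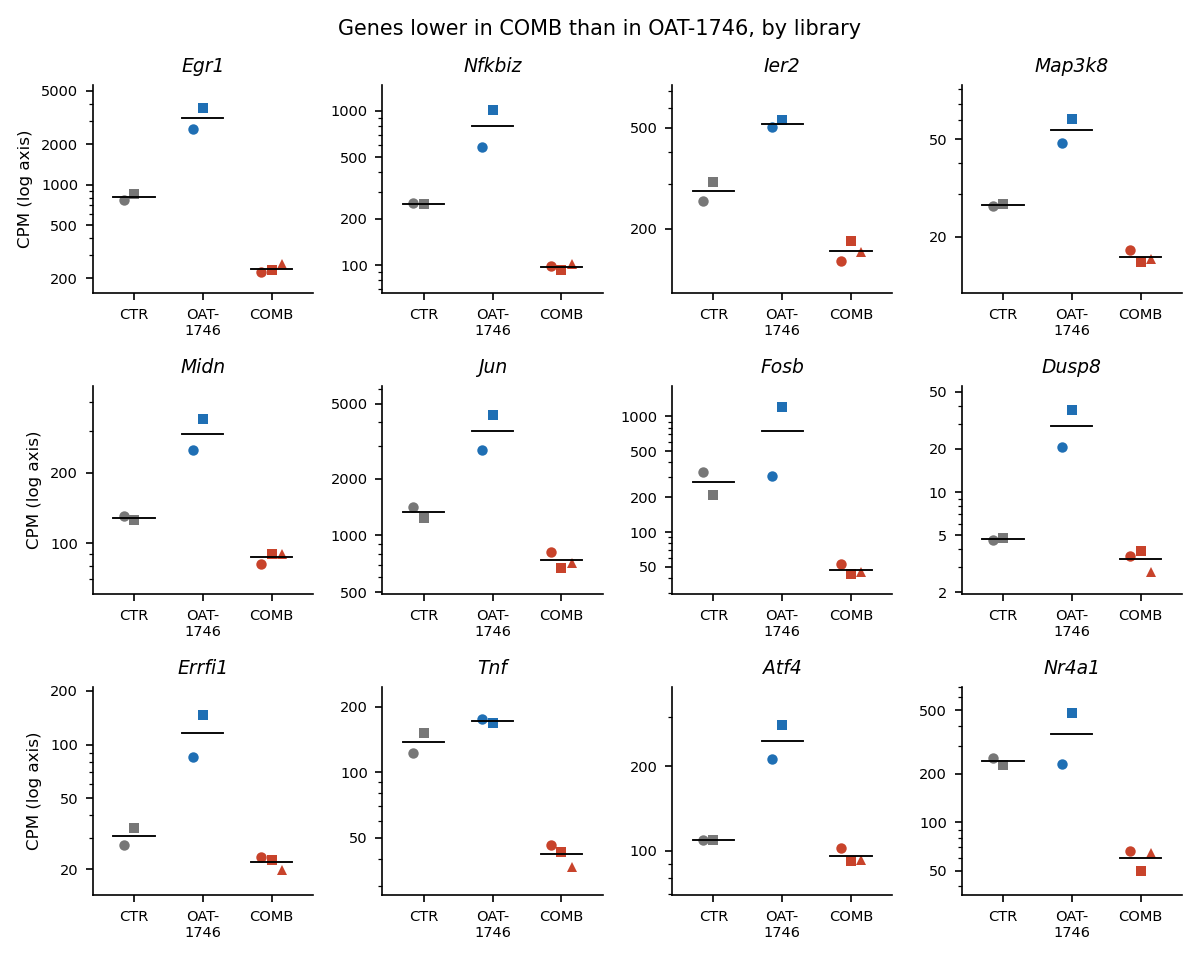
CPM on a log axis in each CTR, OAT-1746 and COMB library for 12 genes lower in COMB, with the symbol shape giving the replicate number and the line the group mean. In each panel the 3 COMB libraries lie below both OAT-1746 libraries, for Egr1 at 224 to 256 CPM against 2591 and 3730 CPM.

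Among 29 other immediate early genes, 16 were called lower (8.94% of all genes) and none higher, with a median of −1.04 (−0.72 without OAT-1746 replicate 2), and 23 lay below both OAT-1746 libraries in every COMB library (28.9% of all genes). Errfi1, an inhibitor of the EGF receptor, was at 84.9 and 147 CPM in OAT-1746 and 23.5, 22.6 and 19.8 CPM in COMB and was also called without OAT-1746 replicate 2 (log2 fold change −2.40, and −1.94 in that fit). Klf4 and Klf2 were higher in OAT-1746 replicate 2 than in replicate 1. Klf2, which holds monocytes in a resting state, was at 442 and 1235 CPM in OAT-1746 and 265, 242 and 238 CPM in COMB, and its log2 fold change of −1.76 came to −0.82 without replicate 2. For Klf4 the values were −2.53 and −1.51. Per1, a clock gene that is also an immediate early gene, was lower by a log2 fold change of −1.82, at 294 and 441 CPM against 67.6, 116 and 128 CPM.

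Of 15 MAP kinase phosphatases and feedback inhibitors, 6 were called lower (8.94% of all genes) and none higher, at a median of −0.64 (−0.66 with 1 call without OAT-1746 replicate 2). Dusp8, a phosphatase of JNK and p38, was at 20.7 and 37.5 CPM in OAT-1746 and 3.56, 3.89 and 2.77 CPM in COMB, a log2 fold change of −3.09 (SE 0.31; −2.58 and still called without OAT-1746 replicate 2). Spry1, an inhibitor of receptor tyrosine kinase signals, was at 17.5 and 30.4 CPM against 9.72, 9.04 and 7.73 CPM, and Dusp10 at 8.44 and 11.6 CPM against 3.78, 4.36 and 3.69 CPM. Dusp1, the most abundant member by summed CPM, was not called, at 1580 and 2103 CPM in OAT-1746 and 1419, 1667 and 1613 CPM in COMB.

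Some genes with large decreases belong to none of these lists. Arl4d, a small GTPase of the ARF family, was at 22.5 and 38.2 CPM in OAT-1746 and 2.74, 4.55 and 2.84 CPM in COMB. Gem, a GTPase of the RGK family that limits calcium channels, was at 43.01 and 102 CPM and 10.5, 11.8 and 8.79 CPM. Ppp1r10, a nuclear targeting subunit of protein phosphatase 1, was at 279.7 and 524 CPM and 66.7, 61.4 and 59.98 CPM. Epha2, an ephrin receptor, was at 165 and 259.9 CPM and 47.7, 34.8 and 31.6 CPM. The log2 fold changes of the 4 genes were −3.16, −2.80, −2.68 and −2.48, and all 4 were also called without OAT-1746 replicate 2, at −2.71, −2.04, −2.14 and −2.11.

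Promoter sequences were looked up for the genes that moved together. RefSeq promoters of GRCm38.p6 matched 9950 of the 12538 tested genes, and the 250 bases before the start were searched on both strands for 6 motifs. The start meant here is that of RefSeq. For Dusp8 and Tnfaip3 the GENCODE gene begins farther upstream, at chr7:142095843 and chr10:19015657, so their stretches lie inside it. The full cAMP response element (CRE, TGACGTCA), bound by CREB and ATF factors, was found in 2.68% of all these promoters. Among the 26 genes called lower without OAT-1746 replicate 2, 18 had a promoter and 5 of them (27.8%) held a CRE: Dusp8, Arl4d, Epha2, Hic2 and Wsb1. The share was 2.93% over all 888 promoters of genes called lower and 3.37% over the 683 of genes called higher, and 6 of 60 promoters of ribosomal protein genes, a list higher in COMB, held a CRE as well. A CRE was in 0 of 4 promoters of EGR and NR4A factors and in 0 of 14 of AP-1 and related bZIP factors. Among other immediate early genes it was in 2 of 22. The AP-1 motif (TGANTCA) was in 0 of the 18 and in 4.05% of all, the EGR motif (GCGTGGGCG) in 1 of the 18 and in 1.13% of all. A match describes letters and not a bound site. Hic2, a zinc finger repressor, was at 15.8 and 17.5 CPM in OAT-1746 and 4.60, 3.17 and 4.11 CPM in COMB, and Wsb1, a ubiquitin ligase subunit, at 129 and 234 CPM and 61.2, 54.9 and 48.4 CPM. The stretches with the CRE in capitals run 5′ to 3′ on the gene's strand: Dusp8 at chr7:142095285-142095404 (minus strand, 2 matches, 107 and 63 bases before the start), Arl4d at chr11:101665461-101665540 (plus strand, 26 bases before the start), Epha2 at chr4:141301141-141301220 (plus strand, 33 bases), Hic2 at chr16:17233507-17233586 (plus strand, 19 bases) and Wsb1 at chr11:79254696-79254775 (minus strand, 38 bases).
Dusp8: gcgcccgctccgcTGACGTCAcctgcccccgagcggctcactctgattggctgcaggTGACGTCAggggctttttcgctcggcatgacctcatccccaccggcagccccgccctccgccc
Arl4d: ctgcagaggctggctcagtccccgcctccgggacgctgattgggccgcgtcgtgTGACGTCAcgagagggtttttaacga
Epha2: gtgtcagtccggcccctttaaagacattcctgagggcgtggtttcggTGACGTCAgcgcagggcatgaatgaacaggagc
Hic2: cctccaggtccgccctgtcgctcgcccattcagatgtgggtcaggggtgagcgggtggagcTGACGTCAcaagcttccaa
Wsb1: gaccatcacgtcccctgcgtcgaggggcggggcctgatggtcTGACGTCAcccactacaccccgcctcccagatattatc

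In the list of NF-kB subunits, inhibitors and feedback genes, 6 of 28 tested members were called lower (8.94% of all genes) and none higher, and the median of −0.09 was near that of all genes and came to 0.05 with an offset for gene length and GC content (without OAT-1746 replicate 2, −0.02). Nfkbid, a nuclear inhibitor related to Nfkbiz, was at 71.4 and 216 CPM in OAT-1746 and 18.99, 17.9 and 19.2 CPM in COMB, with a log2 fold change of −2.94, and −1.92 and still called without OAT-1746 replicate 2. Rel, the c-Rel subunit, was at 93.5 and 129 CPM against 33.97, 27.4 and 29.1 CPM (log2 fold change −1.89). Tnfaip3, which encodes the deubiquitinase A20, was at 499 and 772 CPM against 222, 241 and 281 CPM (−1.36), and Nfkbia, the cytoplasmic inhibitor, at 949.9 and 1058 CPM against 466, 658 and 589 CPM (−0.81). Of the other subunits, Nfkb1 and Relb were not called, at log2 fold changes of −0.33 and 0.59. A kB motif was found in 8.79% of all promoters, in 11.6% of those of genes called lower and in 6.88% of those of genes called higher. In this list, which was chosen for the pathway and includes genes not called, it was in 9 of 23 promoters (39.1%). Zfp36, an RNA-binding protein that destabilizes Tnf mRNA, was at 2813 and 2873 CPM in OAT-1746 and 983, 1267 and 1317 CPM in COMB and is shown with them for its CArG box, a motif of serum response factor found in 1.09% of all promoters. Capitals mark the kB motifs of Rel (chr11:23770970-23771089, minus strand; its 2 matches overlap), the AP-1 and kB motifs of Tnfaip3 (chr10:19015411-19015550, minus strand) and the CArG box of Zfp36 (chr7:28379229-28379308, minus strand).
Rel: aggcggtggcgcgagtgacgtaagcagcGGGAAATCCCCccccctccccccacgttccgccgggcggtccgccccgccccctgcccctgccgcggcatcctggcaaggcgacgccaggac
Tnfaip3: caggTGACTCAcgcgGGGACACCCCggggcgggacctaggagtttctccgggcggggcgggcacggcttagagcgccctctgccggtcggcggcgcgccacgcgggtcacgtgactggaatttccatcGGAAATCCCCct
Zfp36: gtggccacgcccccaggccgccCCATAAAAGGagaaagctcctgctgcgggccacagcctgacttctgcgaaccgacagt

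Tnf was at 176 and 168 CPM in OAT-1746, 46.5, 43.2 and 36.9 CPM in COMB and 122.9 and 151 CPM in CTR. Its OAT-1746 libraries lay just above CTR and its COMB libraries far below both groups, and the log2 fold change of −2.02 (SE 0.20, adjusted p = 0.00528, edgeR's quasi-likelihood test with Benjamini-Hochberg adjustment) was −2.05 and still called without OAT-1746 replicate 2. Il1a, an alarmin of the interleukin-1 family, was at 137 and 294 CPM in OAT-1746 and 92.6, 76.2 and 73.5 CPM in COMB (−1.41, and −0.75 without OAT-1746 replicate 2). Il1b was not called, at 424 and 132 CPM and 288, 454 and 483 CPM. Tnfsf13b, the B cell survival factor BAFF, had a log2 fold change of 0.99. In the cytokine list 2 members were called higher and 2 lower of 24, near the shares of all genes (6.84% and 8.94%), with a median of 0.15 that turned to −0.05 without OAT-1746 replicate 2 and to −0.12 with the length and GC offset.

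Of 14 CC chemokine ligands, 2 were called higher and 2 lower (6.84% and 8.94% of all genes). The lower pair were Ccl3 and Ccl4, chemokines made early by activated microglia. Ccl3 was at 79.5 and 189 CPM in OAT-1746, 31.7, 24.6 and 27.9 CPM in COMB and 101 and 62.8 CPM in CTR, and Ccl4 at 127 and 259.5 CPM, 65.3, 73.8 and 64.4 CPM and 138 and 93.7 CPM. Both were highest in OAT-1746 replicate 2, and their log2 fold changes of −2.26 and −1.51 came to −1.49 and −0.89 without it. The higher pair were Ccl17, a Ccr4 ligand, with 1.46 and 1.43 CPM against 5.41, 7.06 and 5.25 CPM, and Ccl7, which draws monocytes, with 29.7 and 12.99 CPM against 52.1, 78.3 and 64.7 CPM. The median of the list was 0.56, 0.19 without OAT-1746 replicate 2 and −0.04 with the offset in addition. Of 11 CXC ligands, 1 was called, Cxcl1, which draws neutrophils, at 3.14 and 3.43 CPM in OAT-1746 and 0.519, 0.528 and 0.284 CPM in COMB. The CXC median was 0.46, 0.55 without OAT-1746 replicate 2, and turned to −0.24 with the length and GC offset. Cxcl9, which interferon-gamma induces and which draws T cells, was at 869.7 and 187 CPM in OAT-1746 and 735, 1518 and 1532 CPM in COMB, values that overlap, and was not called. Of 22 chemokine and chemoattractant receptors, Fpr1, the formyl peptide receptor, was the member called, higher at 2.79 and 2.06 CPM against 4.08, 11.9 and 11.3 CPM; the median of 0.13 turned to −0.04 without OAT-1746 replicate 2 and to −0.02 with the offset.

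In the heat shock and chaperone list 3 of 41 were called higher and 5 lower, near the shares of all genes (6.84% and 8.94%), with a median of 0.12 (0.07 without OAT-1746 replicate 2, and −0.02 with the offset in addition). Hspa1a, an HSP70 gene nearly identical to its neighbor Hspa1b and so uncertain in its counts, was at 20.7 and 134 CPM in OAT-1746 and 5.41, 6.33 and 6.74 CPM in COMB, and its log2 fold change of −3.65 came to −1.73 without OAT-1746 replicate 2, which held most of its reads. Dnajb4 was at 38.9 and 61.7 CPM against 12.4, 13.5 and 11.1 CPM and was still called in that fit (−2.03, then −1.64). Dnajb1 and Bag3, other targets of heat shock factor, had log2 fold changes of −1.37 and −1.02. Dnajb1 was at 158.4 and 281.2 CPM in OAT-1746 and 68.46, 96.48 and 90.25 CPM in COMB. Bag3 was at 57.16 and 79.08 CPM and at 32.86, 32.6 and 35.59 CPM. OAT-1746 replicate 2 was the highest library for both. The part of tissue handling in the immediate early and heat shock genes was not tested.

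The amino acid and unfolded protein response list had 5 genes called higher and 4 lower of 38, against 6.84% and 8.94% of all genes (median 0.11, and 0.08 without OAT-1746 replicate 2). Atf4, the factor translated when eIF2 is phosphorylated, was at 213 and 279.8 CPM in OAT-1746, 102, 92.1 and 93.1 CPM in COMB and 109 and 109 CPM in CTR, a log2 fold change of −1.36 (−1.14 and still called without OAT-1746 replicate 2). Ppp1r15a, which encodes the phosphatase subunit GADD34, was at 191 and 348 CPM against 47.2, 45.4 and 54.5 CPM (−2.46). Asns, the asparagine synthetase gene and a target of ATF4, was higher in COMB at 5.12 and 2.40 CPM against 8.75, 10.6 and 10.1 CPM (1.39, and 0.95 without that library). Cebpb, a factor of macrophage activation, was at 180.0 and 93.7 CPM in OAT-1746, 357, 455 and 537 CPM in COMB and 232 and 133 CPM in CTR. All COMB libraries lay above all OAT-1746 and CTR libraries for Cebpb, with a log2 fold change of 1.72 (SE 0.35; 1.33 without OAT-1746 replicate 2).

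Cebpb was the single member called higher among 46 C/EBP, KLF, IRF and lineage transcription factors, of which 21 were called lower, against 8.94% of all genes (median −0.61, and −0.52 without OAT-1746 replicate 2). Tgif2, a repressor in TGF-beta signaling, was at 36.4 and 69.5 CPM against 13.7, 11.9 and 11.2 CPM and was still called without that library (−2.11, then −1.56). Cebpd was lower at 79.04 and 70.96 CPM against 47.9, 49.7 and 41.5 CPM. The lineage factors Spi1 and Irf8 were not called and lay close in all libraries, Spi1 at 461 and 377 CPM against 423, 475 and 464 CPM and Irf8 at 820.4 and 794 CPM against 700.2, 758 and 734 CPM. Klf2 and Klf4 count in this list as well as among the immediate early genes. Rasgef1b, an exchange factor induced by Toll-like receptors, was at 120.2 and 294 CPM against 63.8, 50.4 and 46.4 CPM (−1.95, and −1.15 without that library).

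The targets of the agents and their partners were read next. Pdcd1lg2, which encodes PD-L2, was at 3.38 and 1.72 CPM in OAT-1746, 6.53, 42.8 and 40.8 CPM in COMB and 13.1 and 6.65 CPM in CTR. COMB replicates 2 and 3 were the highest, COMB replicate 1 lay just under CTR, and both OAT-1746 libraries were lower still. The log2 fold change was 3.56 (SE 0.79, adjusted p = 0.0287, edgeR's quasi-likelihood test with Benjamini-Hochberg adjustment), and 3.16 without OAT-1746 replicate 2.

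Nos2, Cd274 and Pdcd1 were not called. Nos2, which makes nitric oxide from arginine, was at 28.9 and 16.5 CPM in OAT-1746, 22.99, 184 and 210.2 CPM in COMB and 16.9 and 19.5 CPM in CTR. Here again COMB replicates 2 and 3 were high and COMB replicate 1 lay among the OAT-1746 values, so the groups overlapped. The log2 fold change was 2.61 (SE 0.90, adjusted p = 0.0723, edgeR's quasi-likelihood test with Benjamini-Hochberg adjustment), and the gene was called at 3.08 without COMB replicate 1. Cd274, which encodes PD-L1, was at 159.5 and 70.4 CPM against 125, 260.0 and 280.2 CPM. It overlapped between groups with all libraries and was called without OAT-1746 replicate 1, at 1.66. Pdcd1, the PD-1 gene, was at 7.16 and 3.20 CPM against 6.60, 2.77 and 2.41 CPM.

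Genes of arginine and polyamine metabolism included 8 called higher and 1 called lower of 32 tested (6.84% and 8.94% over all genes), with a median of 0.28 (0.30 without OAT-1746 replicate 2). Slc7a2, a cationic amino acid transporter that brings arginine into macrophages, was at 23.5 and 8.64 CPM in OAT-1746, 62.2, 91.7 and 104 CPM in COMB and 105 and 22.5 CPM in CTR (2.42, and 1.89 without that library). Gatm, which uses arginine for creatine synthesis, was at 229.6 and 174 CPM against 276, 543 and 520.0 CPM, and Asl, the argininosuccinate lyase that remakes arginine, at 28.5 and 15.9 CPM against 32.1, 44.8 and 44.5 CPM. Ass1, the enzyme before Asl, was not called, at 244 and 26.9 CPM against 296, 554 and 529 CPM, and its lowest value was that of OAT-1746 replicate 2.

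Among 28 checkpoint and costimulation genes, 3 were called higher and 4 lower (6.84% and 8.94% of all genes), and the median of 0.08 turned to −0.03 without OAT-1746 replicate 2 and to −0.06 with the length and GC offset. Tnfrsf9, the costimulatory receptor 4-1BB, was at 1.22 and 0.172 CPM in OAT-1746 and 4.30, 6.67 and 9.71 CPM in COMB. Lag3, an inhibitory receptor that microglia also make, was lower at 250.4 and 468 CPM against 224, 139 and 166 CPM (−1.03, and −0.49 without OAT-1746 replicate 2). Vsir, which encodes VISTA, was lower at 2816 and 3629 CPM against 2191, 1731 and 1731 CPM (−0.77, then −0.56). For both, OAT-1746 replicate 2 was the highest library. Outside this list, Tnfsf14, the costimulatory ligand LIGHT, was higher at 1.75 and 0.343 CPM against 3.71, 14.1 and 14.6 CPM.

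**Figure D3:**
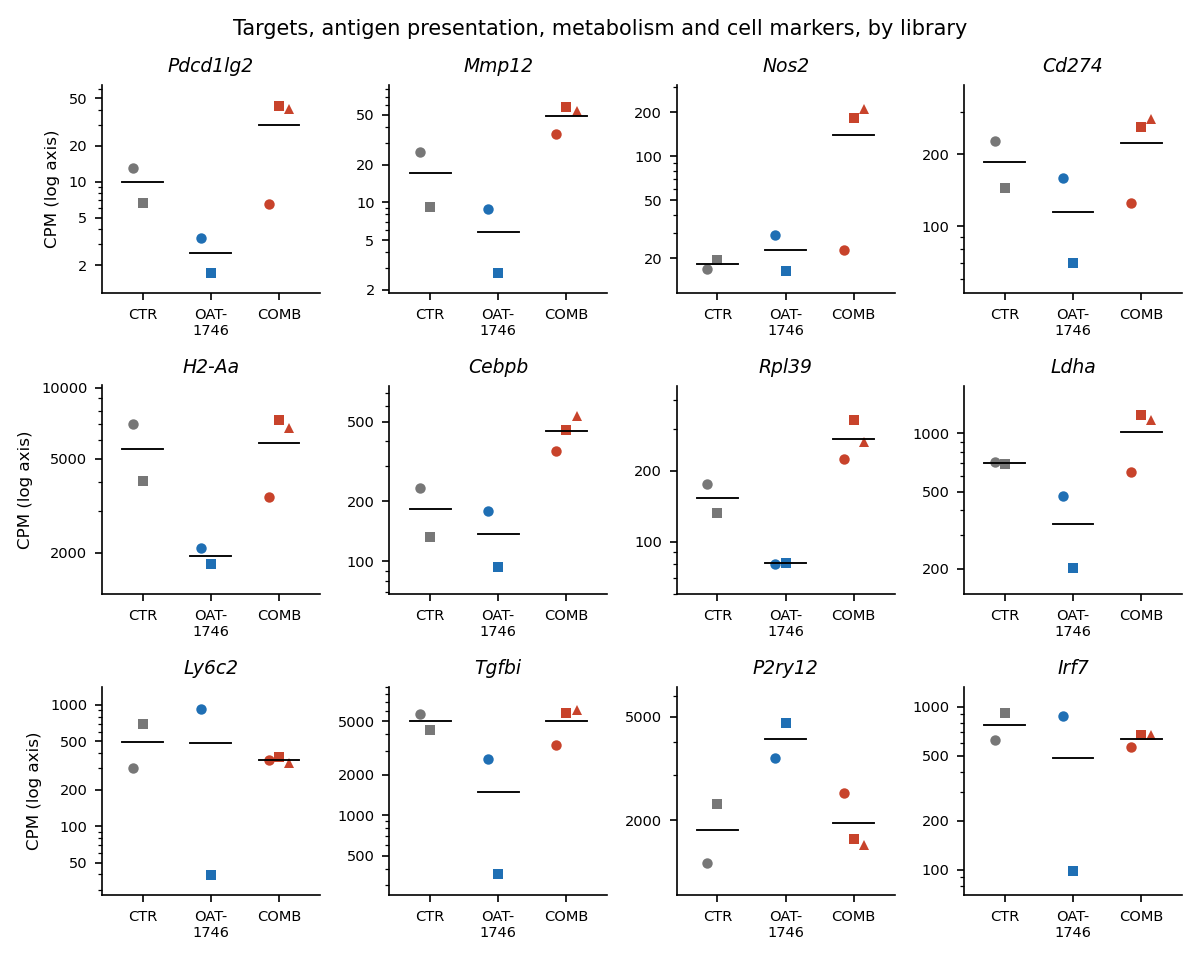
CPM on a log axis in each CTR, OAT-1746 and COMB library for 12 further genes, with the symbol shape giving the replicate number and the line the group mean. For Pdcd1lg2, COMB replicate 1 lies at 6.53 CPM and COMB replicates 2 and 3 at 42.8 and 40.8 CPM, against 3.38 and 1.72 CPM in OAT-1746.

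The genes that follow are 7 of those with the largest increases and had COMB replicates 2 and 3 highest, as Pdcd1lg2 did. Mmp12, the macrophage elastase, was at 8.85 and 2.75 CPM in OAT-1746 and 34.9, 57.7 and 53.4 CPM in COMB, Mmp19 at 6.23 and 2.12 CPM and 12.1, 28.8 and 31.5 CPM, and the membrane protease gene Adam8 at 44.9 and 9.79 CPM and 93.6, 270.0 and 278 CPM. Ltb4r1, the leukotriene B4 receptor, was at 11.3 and 6.70 CPM and 18.9, 71.1 and 69.3 CPM, and Ptger2, a prostaglandin E2 receptor, at 2.503 and 0.687 CPM and 4.23, 11.5 and 11.1 CPM. Pdpn, a mucin-type glycoprotein of activated macrophages, was at 11.6 and 1.03 CPM and 24.3, 69.2 and 67.6 CPM, and Aqp9, a channel for glycerol, at 6.69 and 1.37 CPM and 16.3, 24.02 and 25.1 CPM. In each of these 7 genes OAT-1746 replicate 2 was the lowest of the 5 libraries and COMB replicate 1 the lowest of COMB. Without OAT-1746 replicate 2 the log2 fold changes were 2.47 for Mmp12 (with it 3.07), 2.26 for Adam8 (2.97), 2.22 for Pdpn (3.09) and 2.23 for Ltb4r1 (2.56).

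MHC class II molecules present antigen to helper T cells. Of 13 genes tested, 6 were called higher (6.84% of all genes) and none lower, with a median of 0.84 (0.82 and 0 calls without OAT-1746 replicate 2, 0.67 and 2 calls under the length and GC offset). H2-Aa, a class II alpha chain, was at 2099 and 1799 CPM in OAT-1746, 3455, 7319 and 6738 CPM in COMB and 6999 and 4015 CPM in CTR. Cd74, the invariant chain, was at 4426 and 3999 CPM, 6138, 11750 and 12280 CPM and 13820 and 7615 CPM. Both OAT-1746 libraries lay below CTR, and COMB replicate 1 lay between them and COMB replicates 2 and 3. The log2 fold changes were 1.58 (SE 0.36) for H2-Aa and 1.25 (SE 0.36) for Cd74, and 1.49 and 1.19 without OAT-1746 replicate 2. H2-Ab1, H2-Eb1 and H2-DMb1 had log2 fold changes of 1.54, 1.49 and 1.44. The class II transactivator Ciita was not called, at 73.5 and 52.8 CPM against 100.2, 127 and 162 CPM, although all 3 COMB libraries were above both OAT-1746 libraries.

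Of 24 class I antigen processing genes 3 were called higher (6.84% of all genes) and none lower, and 2 of these, Psmb8 and Psme2, also count as proteasome genes. The median of the list was 0.67, 0.47 without OAT-1746 replicate 2, and 0.44 with 1 call under the length and GC offset. Of 42 proteasome genes 22 were called higher and none lower (median 0.83, 0.55 and 0 calls without that library, 0.63 and 13 calls with the offset). Psmb8, a catalytic subunit of the immunoproteasome, was at 372 and 176 CPM in OAT-1746 and 420.2, 832 and 782 CPM in COMB. Psme2, an activator of that proteasome, was at 192 and 64.9 CPM against 239, 491 and 435 CPM, and the constitutive subunit Psmb4 at 112 and 70.2 CPM against 153, 256 and 240.3 CPM. OAT-1746 replicate 2 was the lowest library for all of them. In the proteasome list, 34 genes had all COMB libraries above both OAT-1746 libraries, against 25.0% of all genes.

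No gene of the interferon lists was called in edgeR's quasi-likelihood test with all libraries. Of 39 type I interferon-stimulated genes, 0 were called (15.8% of all genes). Their median of 0.25 turned to −0.38 without OAT-1746 replicate 2, and it was 1.68 without OAT-1746 replicate 1. Their summed level was 7382 and 2130 CPM in OAT-1746, 5734, 5888 and 6075 CPM in COMB and 6989 and 7768 CPM in CTR, so OAT-1746 replicate 2 stood below every other library. Irf7, the master factor of the response and the most abundant member, was at 879 and 98.1 CPM and 569, 675 and 672 CPM. The 16 GTPases induced by interferon-gamma had a median of 0.89 (0.33 without OAT-1746 replicate 2, and 1.85 without OAT-1746 replicate 1). Gbp2, the most abundant of them, was at 854 and 195 CPM in OAT-1746 and 569, 1086 and 1267 CPM in COMB.

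Of 30 tested genes of homeostatic microglia, 8 were called lower (8.94% of all genes) and none higher, all 30 had negative log2 fold changes, and 29 lay below both OAT-1746 libraries in every COMB library (28.9% of all genes). The median was −0.70, and −0.55 without OAT-1746 replicate 2, where 0 were called. P2ry12, the ADP receptor that guides microglial processes, was at 3488 and 4726 CPM in OAT-1746, 2539, 1698 and 1612 CPM in COMB and 1376 and 2309 CPM in CTR. OAT-1746 lay above CTR, and COMB replicate 1 lay between OAT-1746 and the other COMB libraries. Sall1, the transcription factor that sets microglial identity, was at 516 and 618 CPM, 370.3, 214 and 234 CPM and 241 and 337 CPM, and Tmem119, which was not called, at 3342 and 4098 CPM, 2795, 2401 and 2151 CPM and 1436 and 2510 CPM. The log2 fold changes were −1.07 for P2ry12 (SE 0.28) and −1.06 for Sall1 (SE 0.25), and −0.82 and −0.90 without OAT-1746 replicate 2. The summed level of the list was 62420 and 77240 CPM in OAT-1746, 53070, 40680 and 39570 CPM in COMB and 31620 and 45930 CPM in CTR.

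Markers of infiltrating monocytes and macrophages moved with OAT-1746 replicate 2. Of 32 tested, 3 were called higher (6.84% of all genes) and none lower. The median of 0.76 came to 0.12 without OAT-1746 replicate 2 and to −0.04 with the length and GC offset in addition. Without OAT-1746 replicate 1 it was 2.41. Their summed level was 11030 and 2586 CPM in OAT-1746, 10410, 15870 and 16310 CPM in COMB and 14140 and 13860 CPM in CTR, with Tgfbi the most abundant. OAT-1746 replicate 1 lay within the COMB values, and replicate 2 far below. F13a1, a transglutaminase gene of monocytes, was called higher, at 175 and 134 CPM against 209, 268 and 292 CPM. The share of the immediate early, antigen presentation and translation differences that goes with fewer monocyte transcripts in OAT-1746 replicate 2 was not tested, and the medians without that library are those given with each group.

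Of 27 genes of disease-associated microglia and lipid handling, 2 were called higher (6.84% of all genes), Cst7 and Cd63, and the median of 0.46 turned to −0.01 without OAT-1746 replicate 2. Cst7, a cysteine protease inhibitor, was at 21.6 and 27.6 CPM in OAT-1746 and 49.5, 47.7 and 48.2 CPM in COMB, and its call was lost in each fit without 1 library and with the length and GC offset (log2 fold change 0.98, and 0.28 with the offset). Apoe and Trem2 were not called, at log2 fold changes of 0.08 and −0.31. Of 21 border-associated macrophage genes, 1 was called higher (6.84% of all genes), the lectin receptor gene Clec12a, at 54.5 and 27.1 CPM against 60.1, 130.1 and 126 CPM, and the median of −0.33 was 0.00 without OAT-1746 replicate 2.

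NK cell genes had a median of 0.98 over 27 tested members, 4 of which were called higher (6.84% of all genes) and none lower. It was 0.50 without OAT-1746 replicate 2 and 2.20 without OAT-1746 replicate 1. Klrb1b, an inhibitory receptor of NK cells, was at 10.8 and 4.86 CPM in OAT-1746, 17.6, 28.5 and 31.1 CPM in COMB and 27.9 and 23.9 CPM in CTR, a log2 fold change of 1.72 (SE 0.35; 1.27 without OAT-1746 replicate 2), and Cd244a, a receptor that macrophages also carry, at 16.7 and 5.26 CPM against 25.1, 33.1 and 33.1 CPM. The defining genes Ncr1 and Klrb1c were low, Ncr1 at 2.85 and 1.03 CPM against 1.33, 2.44 and 2.48 CPM and Klrb1c at 3.08 and 0.858 CPM against 3.12, 3.96 and 4.82 CPM. The granule genes Gzma and Prf1 were at 23.7 and 7.61 CPM against 23.3, 52.8 and 54.1 CPM and at 10.01 and 2.75 CPM against 7.49, 19.3 and 23.04 CPM, so COMB replicates 2 and 3 were highest and COMB replicate 1 was within or near OAT-1746 replicate 1. The summed level of the list was 331 and 172 CPM in OAT-1746, 293, 626 and 653 CPM in COMB and 319 and 276 CPM in CTR, with Ccl5, which other leukocytes also make, the most abundant. NK cells can carry CD11b and so may be among the sorted cells, and their part in these values was not tested.

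T and B cell genes gave no calls in edgeR's quasi-likelihood test. Of 19 T cell genes 0 were called (15.8% of all genes), with a median of 0.46 (0.49 without OAT-1746 replicate 2), a summed level of 79.4 and 80.9 CPM in OAT-1746 and 79.4, 91.7 and 108 CPM in COMB, and Il7r as the most abundant. Of 9 B cell genes 0 were called, with a median of 0.49 that was 0.18 without OAT-1746 replicate 2 and turned to −0.04 with at least 10 counts required in every library, a summed level of 49.1 and 61.7 CPM and 51.8, 43.8 and 58.7 CPM, and Cd22 as the most abundant. One neutrophil gene was called lower of 18 (8.94% of all genes), Csf3r, the G-CSF receptor that microglia also make, at 382 and 475 CPM against 269, 243 and 254 CPM. The neutrophil median of −0.08 turned to 0.30 without OAT-1746 replicate 2 and to 0.03 under limma voom, and was −0.46 with the length and GC offset. The neutrophil marker Ly6g was at 1.03 CPM or less, and S100a8 was at 23.5 and 40.2 CPM against 40.4, 41.7 and 36.4 CPM. Of 20 dendritic cell genes 1 was called higher, Ccl17, and 3 lower (6.84% and 8.94% of all genes), among them Irf4, at 9.54 and 17.1 CPM against 7.19, 4.82 and 3.54 CPM, and Fscn1, an actin-bundling protein, at 712 and 794 CPM against 513, 342 and 361 CPM. Their median of 0.25 turned to −0.01 without OAT-1746 replicate 2, and the defining genes Flt3 and Xcr1 were at 9.49 and 6.81 CPM against 10.2, 9.63 and 8.37 CPM and at 1.28 and 0.458 CPM against 1.71, 0.990 and 1.49 CPM.

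Of 81 cytosolic ribosomal protein genes, 58 were called higher (6.84% of all genes) and none lower, all 81 had positive log2 fold changes, and 77 had every COMB library above both OAT-1746 libraries (25.0% of all genes). The median was 0.82, 0.63 without OAT-1746 replicate 2 with 1 call kept, and 0.44 with 28 calls under the length and GC offset. The call kept was that of Rpl39, the single gene called higher without that library. Rpl39, a protein at the exit of the ribosomal tunnel, was at 80.3 and 81.1 CPM in OAT-1746, 224, 330.2 and 265 CPM in COMB and 175 and 132 CPM in CTR, a log2 fold change of 1.76 (SE 0.21, adjusted p = 0.00849, edgeR's quasi-likelihood test with Benjamini-Hochberg adjustment; 1.78 without OAT-1746 replicate 2 and 1.19 with the offset). OAT-1746 lay below CTR and COMB above it. Rps19 was at 300.3 and 182 CPM against 478, 685 and 564 CPM and Rpl22l1, a paralog of Rpl22, at 11.2 and 9.61 CPM against 30.04, 32.3 and 28.2 CPM. Ribosomal protein genes share sequence with many processed pseudogenes, so their counts are uncertain. The summed level of the list was 36880 and 27060 CPM in OAT-1746, 46490, 64650 and 55390 CPM in COMB and 56370 and 51220 CPM in CTR. An ETS motif (CCGGAAG) was in 18 of 60 promoters of the list (30.0%) and in 1390 of all 9950.

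Mitochondrial ribosomal protein genes were called higher in 37 of 77 cases (6.84% of all genes) and lower in none (median 0.77, 0.56 without OAT-1746 replicate 2 and 0.46 with the offset). Mrpl18 was at 20.9 and 13.3 CPM in OAT-1746 and 32.7, 50.4 and 42.3 CPM in COMB. Of 37 translation initiation and elongation factors, 12 were called higher and none lower (median 0.51, and 0.38 without that library), among them Eif3i, a subunit of the initiation factor that recruits the small ribosomal subunit, at 89.05 and 56.9 CPM against 122.9, 185 and 156 CPM, and Eif4ebp1, the translation repressor controlled by mTOR, at 45.8 and 20.8 CPM against 52.7, 95.3 and 90.8 CPM. Of 73 ribosome biogenesis genes, 10 were called higher (6.84% of all genes) and none lower, at a median of 0.27 (0.23 without that library), and 4 were called with the offset. Nhp2, a protein of the guide RNA complexes that modify ribosomal RNA, was at 25.7 and 16.4 CPM against 32.8, 56.8 and 53.03 CPM.

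Nuclear genes of the respiratory chain were called higher in 47 of 80 cases (6.84% of all genes) and lower in none, with a median of 0.88 (0.58 and 0 calls without OAT-1746 replicate 2, 0.49 and 23 calls with the offset). Ndufc1 of complex I was at 7.97 and 6.70 CPM in OAT-1746, 16.02, 31.3 and 25.9 CPM in COMB and 20.1 and 19.2 CPM in CTR, and Atp5e of the ATP synthase at 57.4 and 32.7 CPM, 104, 185 and 155 CPM and 101 and 88.1 CPM. Of 7 tested genes of the mitochondrial genome, 3 were called lower (8.94% of all genes) and none higher, with a median of −1.37 (−1.44 without OAT-1746 replicate 2). mt-Nd1 was at 4076 and 3604 CPM in OAT-1746, 1929, 1248 and 1290 CPM in COMB and 1873 and 2113 CPM in CTR, and mt-Nd2 at 2682 and 2524 CPM, 1222, 707 and 772 CPM and 1214 and 1300 CPM. Both OAT-1746 libraries lay above CTR, COMB replicate 1 lay at the CTR level, and COMB replicates 2 and 3 lay below it. The log2 fold changes of mt-Nd1 and mt-Nd2 were −1.37 (SE 0.23) and −1.53 (SE 0.27), and −1.44 and −1.56 without OAT-1746 replicate 2. Nuclear copies of mitochondrial genes make these counts uncertain.

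Gene length moved with the fold change over the whole table. In 5 groups of the tested genes by exon length, the median log2 fold change was 0.38 for the shortest (255 to 2558 bases), then 0.13, −0.03 and −0.13, and −0.30 for the longest (7688 to 123179 bases). Among the shortest 393 genes were called higher and 73 lower, and among the longest 42 and 398. The shortest genes lay at a median log2 difference from the COMB mean of −0.24 in OAT-1746 replicate 1 and −0.50 in OAT-1746 replicate 2, and at −0.16, 0.15 and 0.03 in the COMB libraries. Most ribosomal protein and respiratory chain genes have short transcripts, and the medians of these lists under the length and GC offset were 0.44 and 0.49. With this offset 1507 genes were called, 567 higher and 940 lower. The part of RNA quality or library size selection in this relation was not tested.

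**Figure D4:**
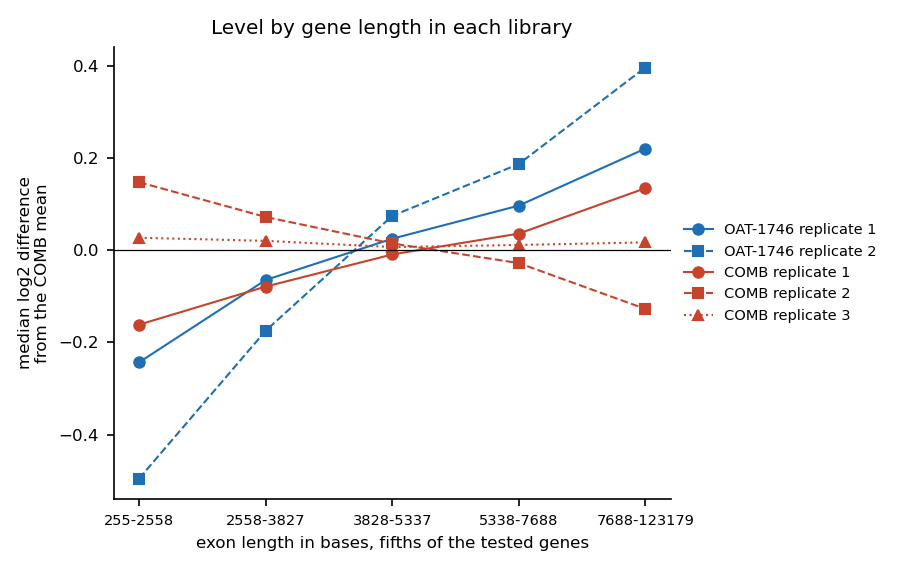
Median log2 difference from the COMB mean in 5 groups of the tested genes by exon length (bases), one line for each OAT-1746 and COMB library. OAT-1746 replicate 2 runs from −0.50 in the shortest to 0.40 in the longest group and OAT-1746 replicate 1 from −0.24 to 0.22, and COMB replicate 1 runs the same way from −0.16 to 0.13, while COMB replicate 2 runs from 0.15 to −0.13 and COMB replicate 3 from 0.03 to 0.02.

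Of 57 DNA replication and S phase genes 13 were called higher (6.84% of all genes) and none lower (median 0.80, and 0.39 with 0 calls without OAT-1746 replicate 2), and of 74 mitosis and kinetochore genes 9 and none (median 0.83, and 0.32 with 0 calls). Ung, the uracil DNA glycosylase, was at 1.51 and 0.744 CPM in OAT-1746, 5.34, 6.00 and 5.39 CPM in COMB and 8.89 and 5.88 CPM in CTR, a log2 fold change of 2.30 (SE 0.35; 1.89 without OAT-1746 replicate 2). E2f1, a factor that starts S phase, was at 12.3 and 6.01 CPM against 18.3, 26.9 and 23.1 CPM, and Cenpa, the centromeric histone, at 4.07 and 2.58 CPM against 7.57, 11.2 and 10.3 CPM. The proliferation marker Mki67 was not called and overlapped, at 3.49 and 0.744 CPM against 2.74, 1.06 and 3.76 CPM, and Top2a, the topoisomerase of dividing cells, was not called at 19.4 and 5.38 CPM against 26.3, 19.9 and 29.2 CPM. CTR levels of both were above those of all COMB libraries, Mki67 at 10.8 and 6.41 CPM and Top2a at 40.8 and 35.9 CPM.

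Of 36 glycolysis and hypoxia response genes tested, 11 had negative log2 fold changes, 10 were called higher and 3 lower (6.84% and 8.94% of all genes), with a median of 0.75 (0.54 and 0 calls without OAT-1746 replicate 2). Ldha, Pgk1 and Egln3 are among those called higher. Ldha, lactate dehydrogenase A, was at 473 and 203 CPM in OAT-1746, 629, 1236 and 1168 CPM in COMB and 705 and 692 CPM in CTR. Pgk1, phosphoglycerate kinase, was at 108 and 46.8 CPM, 155, 338 and 315 CPM and 157 and 145 CPM. Egln3, a prolyl hydroxylase that hypoxia induces, was at 4.19 and 3.89 CPM, 5.79, 15.9 and 14.5 CPM and 6.97 and 8.00 CPM. For these 3 genes COMB replicates 2 and 3 were the highest libraries and COMB replicate 1 lay near CTR. The log2 fold changes were 1.58, 1.80 and 1.58, and 1.10, 1.33 and 1.53 without OAT-1746 replicate 2. Hmox1, the heme oxygenase of macrophages, was called higher at 111 and 91.4 CPM against 134, 302 and 289 CPM, and Vegfa was not called, at 69.03 and 25.7 CPM against 31.4, 42.2 and 44.95 CPM.

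In the cholesterol list 2 of 34 were called higher and 1 lower, against 6.84% and 8.94% of all genes (median 0.33, and 0.25 without OAT-1746 replicate 2). Mylip, which encodes the ligase that degrades the LDL receptor, was lower at 269 and 512 CPM against 144, 105 and 103 CPM (−1.74, and −1.19 without OAT-1746 replicate 2). Of 43 lysosomal hydrolases and cathepsins 2 were called lower (8.94% of all genes), Arsb and Ids, and the median of −0.02 was 0.00 without OAT-1746 replicate 2. Of 20 complement genes 2 were called higher, against 6.84% of all genes (median 0.21, and 0.13 without that library), Cfp, which encodes properdin, at 85.7 and 28.04 CPM against 130.2, 249 and 234 CPM, and C1ra at 15.4 and 11.6 CPM against 23.2, 49.9 and 50.97 CPM. One of 6 Fc gamma receptors was called, the inhibitory Fcgr2b, higher at 521 and 476 CPM against 660.5, 1074 and 1081 CPM, and the median of 0.47 was 0.31 without OAT-1746 replicate 2 and turned to −0.04 with the length and GC offset. Of 22 Toll-like receptors and adaptors 4 were called lower (8.94% of all genes) and none higher (median −0.08, and −0.05 without OAT-1746 replicate 2), with Ticam1, the adaptor TRIF, at 64.8 and 70.9 CPM against 33.8, 33.0 and 35.9 CPM and Tlr9 at 490.5 and 435 CPM against 334, 305 and 315 CPM, whose call was also lost without OAT-1746 replicate 1 (−0.54, then −0.45). Of 18 C-type lectin receptors 3 were called higher (6.84% of all genes) and none lower (median 0.54, and 0.33 without OAT-1746 replicate 2). Clec4d, a receptor for mycobacterial lipids, was at 32.01 and 6.35 CPM against 46.9, 89.9 and 90.5 CPM.

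Transcripts of other brain cells were read as well, and calls were found in the neuron and astrocyte lists. Of 15 neuron genes 9 were called lower in COMB (8.94% of all genes) and none higher, with a median of −1.42, and −1.68 without OAT-1746 replicate 2, where 1 was called. Their summed level was 72.6 and 65.01 CPM in OAT-1746, 24.6, 18.8 and 23.5 CPM in COMB and 23.2 and 36.5 CPM in CTR, so both OAT-1746 libraries lay above all others. The part of neuronal RNA in the genes lower in COMB, and of astrocyte RNA in those higher, was not tested. Astrocyte genes had 4 called higher and 1 lower of 14 (6.84% and 8.94% of all genes), and 10 had all COMB libraries above both OAT-1746 libraries (25.0% of all genes). They had a median of 0.95 (0.90 without OAT-1746 replicate 2) and a summed level of 248 and 308 CPM in OAT-1746, 356, 292 and 289 CPM in COMB and 155 and 209.5 CPM in CTR. Clu, which macrophages also make, was at 8.27 and 11.4 CPM against 29.8, 17.5 and 19.9 CPM, and Gfap, the astrocyte filament gene, was lower at 11.1 and 5.32 CPM against 3.71, 4.29 and 2.84 CPM. The calls of Clu and Gfap were also lost without OAT-1746 replicate 1 (log2 fold changes 0.97 and −0.55, against 1.18 and −1.18) and without COMB replicate 1. The most abundant astrocyte gene was Slc1a3, and no astrocyte marker was at 0.

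Of 15 glioma cell genes 2 were called higher (6.84% of all genes) and none lower, with a median of 0.54 (0.77 without OAT-1746 replicate 2, 0.13 without OAT-1746 replicate 1 and 0.30 without COMB replicate 1) and a summed level of 3792 and 3808 CPM in OAT-1746 and 3635, 3408 and 3449 CPM in COMB, led by Sparc, which microglia also make. Sox2, a stem cell factor of glioma, was at 0.815 and 0.572 CPM against 3.26, 2.18 and 1.70 CPM, and Bcan, a brain proteoglycan, at 4.77 and 5.44 CPM against 16.3, 14.4 and 11.3 CPM. The call of Sox2 was also lost without COMB replicate 1 (1.77, then 1.44). Of 15 oligodendrocyte genes 0 were called in edgeR's quasi-likelihood test (15.8% of all genes), and their median of 0.18 was 0.55 without OAT-1746 replicate 2 and turned to −0.22 without OAT-1746 replicate 1 and to −0.29 without COMB replicate 1, whose summed level was the highest of the list (372 and 515 CPM in OAT-1746, 621, 378 and 442 CPM in COMB). One endothelial and pericyte gene of 18 was called lower (8.94% of all genes), Acta2, at 9.66 and 30.2 CPM against 7.49, 4.03 and 5.32 CPM, and the median of 0.05 was 0.27 without OAT-1746 replicate 2 and turned to −0.02 with library size scaling or without OAT-1746 replicate 1. Of 6 erythroid genes 0 were called in the same test, and the median of −0.76 turned to 0.34 under limma voom and to 3.05 without OAT-1746 replicate 2, which held the most hemoglobin transcripts (Hbb-bs at 0.698 and 17.9 CPM in OAT-1746 and 5.34, 6.07 and 6.66 CPM in COMB).

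**Figure D5:**
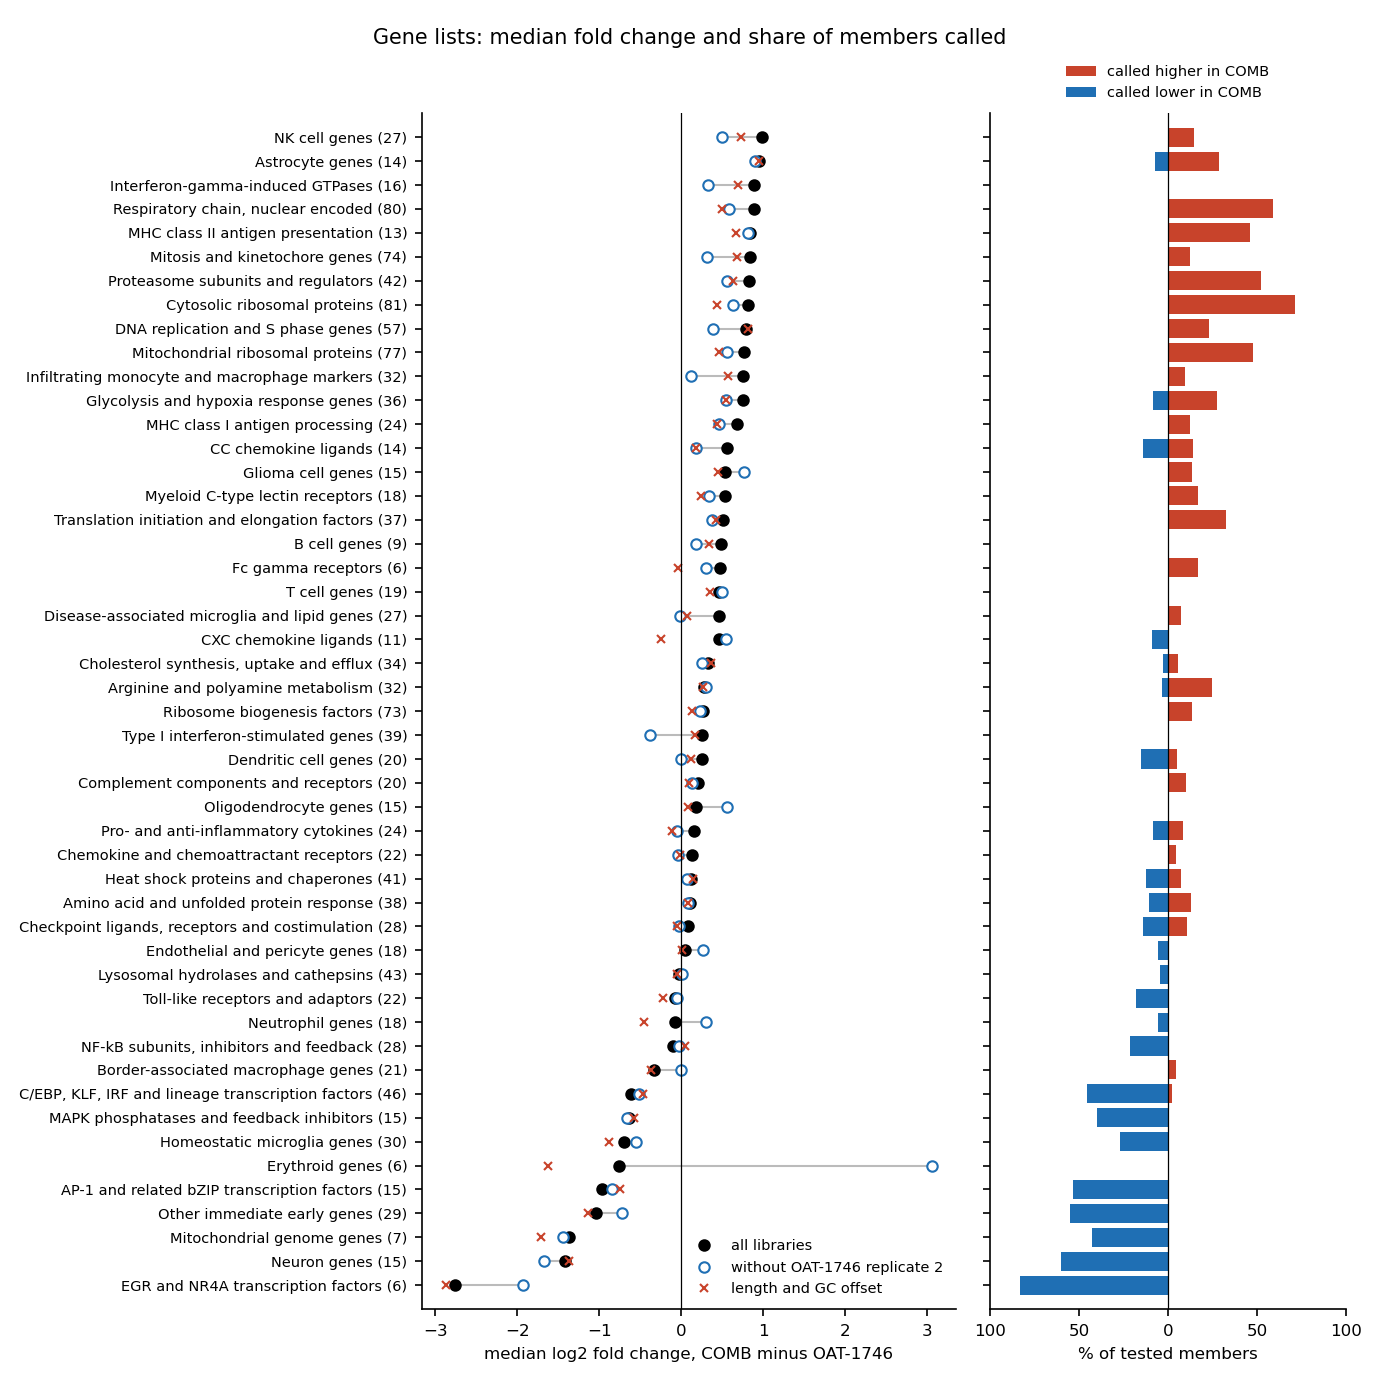
Median log2 fold change (COMB minus OAT-1746) of each gene list with its number of tested members (left; filled, all libraries; open, without OAT-1746 replicate 2; cross, length and GC offset) and the percent of members called in each direction (right). EGR and NR4A factors lie lowest at −2.75, ribosomal protein genes have 58 of 81 members called higher, and the type I interferon median turns from 0.25 to −0.38 without that library.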

How the data were processed

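The values are raw counts that the authors deposited, made by them with Trimmomatic, a STAR alignment to mm10, duplicates marked by Picard, and HTSeq-count on reverse-stranded read pairs. Columns COM1 to COM3 (COMB) and OAT1 to OAT2 (OAT-1746) were compared, and all 9 libraries were in the fit. One library titled CHECK carries an anti-PD-2 treatment label and was grouped with anti-PD-1 by its title, so it enters only the shared spread. Genes of type protein-coding in GENCODE M21 (GRCm38) were kept by Ensembl identifier. Low counts were filtered with edgeR's filterByExpr at a minimum count of 10, scaling was TMM, and edgeR's quasi-likelihood test was adjusted by Benjamini-Hochberg over 12538 genes. CPM for logarithms had a prior count of 2. The fit was also tested on simulated data with a known answer. The simulated libraries shared the same mean profile apart from the genes changed in COMB, and none stood apart. They therefore say nothing on the dependence on single libraries.

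Named genes came by rule: among called genes with a mean of at least 5 CPM and no overlap between groups, the 15 largest rises and 15 largest falls, the targets of the agents and their partners, and in each of 50 gene lists the called members with the largest fold changes, up to 4, or the most abundant member where none was called. Members and lists were chosen with earlier results of these data known. Genes of the neuron list, genes with 0 to 3 counts in a group some members of long lists and some other genes and lists taken by this rule are not reported here.

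Alternatives were DESeq2, limma voom with sample weights, size factors or library size for scaling, other filters, all genes, the 5 libraries alone, robust estimation, a replicate block, an offset for exon length and GC content (loess, span 0.5), a fold threshold, each library left out, and, chosen after seeing the data, the offset without OAT-1746 replicate 2. Promoters were RefSeq sequences of GRCm38.p6. Tools were R 4.3.3, edgeR 4.0.16, limma 3.58.1, DESeq2 1.42.0, Python 3.11.15 and matplotlib 3.10.9.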

Additional observations from a re-analysis of the deposited data

How the results depend on the processing

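The number of calls (1979, 858 higher and 1121 lower in COMB) is the weak point of this comparison of 3 with 2 libraries. Leaving out 1 library gave 5 to 4033 calls, 0 to 2330 higher and 5 to 1703 lower. DESeq2 called 3062, 1651 of them higher, limma voom called 1356 higher, and the length and GC offset called 567 higher. With only the OAT-1746 and COMB libraries in the fit there were 30 calls, 2 higher and 28 lower. Asking for a log2 fold change over 1 left 759, 350 higher and 409 lower. The offset without OAT-1746 replicate 2, chosen after seeing the data, gave 38, 1 higher and 37 lower. A replicate block left 2 calls, 0 higher and 2 lower, and a replicate block with the offset 4, 0 higher and 4 lower. Whether libraries with the same number belong together cannot be told here, since the deviations of 2 OAT-1746 libraries from their mean mirror each other, and the cause of this loss was not tested. Signs reversed for 4 genes that were not called. Cd22 (−0.06) was 0.0397 under limma voom, 0.21 without OAT-1746 replicate 2, 0.08 without COMB replicate 2, 0.26 with the offset without OAT-1746 replicate 2, and ranged down to −0.27 without OAT-1746 replicate 1. Pdcd1 (−0.40) ran from −1.03 without COMB replicate 1 to 0.29 without OAT-1746 replicate 1. Tfrc (0.12) ran from −0.0304 without OAT-1746 replicate 1, with −0.0051 without COMB replicate 1, to 0.31 without OAT-1746 replicate 2. Irf7 (0.39) ran from −0.45 without OAT-1746 replicate 2 (−0.44 with the offset) to 2.71 without OAT-1746 replicate 1.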

Other observations

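Among genes that are not protein-coding, 58 of 1167 (4.97%) were called between COMB and OAT-1746 in edgeR's quasi-likelihood test with Benjamini-Hochberg adjustment. Of 10 tested miRNA genes, 7 were called higher in COMB, all but Mir6236 with Gm names. The libraries were made from polyadenylated RNA, and whether these reads come from mature miRNAs was not tested. Gm23935 was at 167.5 and 352.3 CPM in OAT-1746 and 1341, 757 and 1015 CPM in COMB. Mir6236 was at 18.2 and 44.75 CPM in OAT-1746 and 108, 73.0 and 79.75 CPM in COMB. COMB replicate 1 was the highest COMB library for all 7. The rRNA gene n-R5-8s1 was also called higher, at a log2 fold change of 3.73, but it lay near the floor. Its levels were 0.175 and 0 CPM in OAT-1746 and 1.63, 0.858 and 1.28 CPM in COMB. The fits that left out 1 library held protein-coding genes only, so these calls were not tested in them. Snhg6, a host gene of small nucleolar RNAs, had a log2 fold change of 1.71, and Trp53cor1, a target of p53, had −1.51.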
